A study of Mus musculus with 12 samples.

Results

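Very long genes, here autosomal protein-coding genes whose annotated span was at least 500 kb, were followed through DNA breakage in mouse embryonic fibroblasts (MEFs). Of 37991 gene identifiers counted, 97 met the rule. They had to lie on an autosome, span at least 500 kb from start to end in GENCODE release M21 (GRCm38) and reach a mean raw count of at least 50 over all 12 samples, and Rad51b and the Slit, Robo, Dcc, Unc5, Ntn, Sema, Plxn, Kcn, Eph, Col and Itg families were left out. Of 209 autosomal coding genes of this span, 103 reached the count and 6 of those belonged to an excluded family (Robo1, Robo2, Slit3, Sema6d, Kcnq5 and Kcnma1). The members were chosen by span and by the mean level over every sample, and no contrast between samples entered the choice. All 97 passed the filter on low counts and were tested.

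The cells were primary MEFs of the FVB strain, grown from embryos of 13.5 days and used at passage 3 in 5% O2, either wild-type or homozygous for the E2f1 3KR knock-in (3KR MEFs), in which the 3 lysines of E2F1 that become acetylated after DNA damage are arginines. The 3KR allele is a germline knock-in, and the embryos came from crosses of heterozygous or homozygous mice. Each genotype was left untreated or given neocarzinostatin (NCS), a drug that breaks both DNA strands much as ionizing radiation does, at 250 ng/ml for 3 h. Each of the 4 groups held 3 samples of polyadenylated RNA sequenced with a stranded kit. Nothing in the sources states from how many embryos the cultures came, so p-values measure the spread between these samples, which may be technical.

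A gene of this size is nearly all intron. RNA polymerase II needs hours to travel from its promoter to its end, so the transcript of a very long gene appears late after the gene is switched on, and a single block anywhere along the template stops it. Many such genes code for adhesion, synaptic and cytoskeletal proteins, several overlap the common fragile sites at which chromosomes break under replication stress, and topoisomerases and elongation factors are needed for their full transcription. Polyadenylated RNA reports finished transcripts together with those made before the damage.

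Gene counts added up to 33203757 in the shallowest and 45279321 in the deepest sample. Of 24 p53 targets listed as a check of the treatment, 18 rose after NCS in wild-type MEFs (75%, against 14.3% of all genes tested). In 3KR MEFs 19 rose (79.2%, against 15.8%), and 2 fell in each genotype. The 2 responses were not equal: of all 24 targets, the log2 fold change was called higher in 3KR than in wild-type MEFs for 9 (37.5%, against 1.86%) and lower for 1. Untreated, 18 were lower (75%, against 23.6%) and 2 higher in 3KR than in wild-type MEFs. The 12 fibroblast markers summed to between 2185290 and 2432000 normalized counts (counts divided by the size factor of the sample) in each of the 12 samples. Gene by gene they differed: 10 were called higher and 2 lower in untreated 3KR than in wild-type MEFs, with a median log2 difference of 0.38. Of all genes tested, 22.1% were higher and 23.6% lower. After NCS 9 were higher and 2 lower. Markers of other cell types and of sex also differed between the genotypes. The 12 markers of Schwann cells and neural crest summed to 9469 to 9886 normalized counts in wild-type and 1974 to 2256 in 3KR MEFs, with no marker at 0, and the 13 macrophage markers to 4466 to 5601 and 7919 to 8860. Xist was at 30590 to 35635 normalized counts in the 3KR samples and at 32.3 to 62.5 in the wild-type samples, so genotype and sex of the cells cannot be told apart. Both wild-type cultures numbered 3 stood apart from the other replicates of their group. Chi-square values per gene ran from 7.59 up to 9.40 in the pairs that held them and were at most 2.33 in every other pair. For the comparisons that use them, the counts of all members called are also given without them.

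The members spanned 502 to 2961 kb, with a median of 689 kb and a median of 18 exons in the coding transcript of the longest span. Exons made up a median of 1.60% of the span, and the longest intron alone had a median length of 214179 bases. The longest were Fgfr2, a receptor for fibroblast growth factors (2961 kb), Ptprd, a receptor tyrosine phosphatase (2271 kb), Macrod2, which removes ADP-ribose from proteins (1998 kb), Csmd1, a transmembrane protein of CUB and sushi domains (1643 kb), and Rbfox1, a splicing regulator (1526 kb). Every member had a RefSeq counterpart, which spanned less than 500 kb for 5 of them. For Fgfr2 it spanned 104 kb, and for the cystine transporter gene Slc7a11 134 kb against 551 kb in GENCODE, so these spans depend on the annotation. Ank3, Fars2 and Ntrk3 spanned between 401 and 494 kb in RefSeq.

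Promoters are shown for the first 2 members of each direction, among those with an entry in the RefSeq table, in the ranking of genes that moved the same way in both genotypes. Each is the 250 bases before the most upstream RefSeq start (GRCm38.p6), 5′ to 3′ on the strand of the gene, with capitals on any motif found on either strand. The motifs searched were the GC box with the letters GGGCGG, the TATA element read as the run TATAAA, the box named for its letters CCAAT, and an E2F site, taken as any of TTTGGCGC, TTTGCCGC, TTTCGCGC and TTTCCCGC. A GC box and an E2F site can overlap, and each was counted on its own. The promoters of Kalrn, a guanine nucleotide exchange factor that fell (chr16:34514028-34514277, minus strand), of Rbfox1, which fell (chr16:5884543-5884792, plus strand), of Mast4, a microtubule-associated kinase that rose (chr13:103334493-103334742, minus strand), and of Schip1, which codes for a partner of the neurofibromatosis protein merlin and rose (chr3:68064552-68064801, plus strand), read as follows.
Kalrn: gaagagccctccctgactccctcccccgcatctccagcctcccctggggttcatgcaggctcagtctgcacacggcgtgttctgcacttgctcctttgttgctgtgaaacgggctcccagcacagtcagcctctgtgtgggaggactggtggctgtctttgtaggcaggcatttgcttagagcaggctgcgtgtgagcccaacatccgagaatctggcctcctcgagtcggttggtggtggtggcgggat
Rbfox1: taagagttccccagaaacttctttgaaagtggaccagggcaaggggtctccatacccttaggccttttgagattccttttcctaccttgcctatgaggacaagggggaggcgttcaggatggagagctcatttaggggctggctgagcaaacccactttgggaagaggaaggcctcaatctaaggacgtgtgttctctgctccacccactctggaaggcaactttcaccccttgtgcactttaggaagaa
Mast4: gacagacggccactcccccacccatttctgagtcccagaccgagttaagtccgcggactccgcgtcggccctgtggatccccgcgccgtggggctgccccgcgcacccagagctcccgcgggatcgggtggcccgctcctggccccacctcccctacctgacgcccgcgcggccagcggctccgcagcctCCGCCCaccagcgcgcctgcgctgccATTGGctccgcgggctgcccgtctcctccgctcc
Schip1: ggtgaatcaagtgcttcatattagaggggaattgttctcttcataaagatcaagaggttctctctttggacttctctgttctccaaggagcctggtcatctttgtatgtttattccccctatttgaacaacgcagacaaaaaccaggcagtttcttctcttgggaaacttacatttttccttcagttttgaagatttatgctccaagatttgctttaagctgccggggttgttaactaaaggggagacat

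Of the 4, the Mast4 window held 1 GC box and 1 CCAAT box and the others none of the motifs. The Mast4 window was also the richest in bases G and C, at 75.2% with 30 CpG, against 60.8% with 9 CpG for Kalrn, 51.2% with 2 for Rbfox1 and 40.4% with 2 for Schip1. In all, 77 of the 97 members had an entry. At their most upstream start, a GC box was found in 46.8% of them and in 32.7% of the 32851 promoters of the table. The CCAAT box was found in 23.4% and 33.8%, the TATA box in 7.79% and 12.4%, and an E2F site in 3.90% (3 members) and 1.86%. The median GC content was 63.6% in the members and 52.4% in the table, in which a gene can have several entries. The table was not filtered by gene type or level. These shares therefore do not set the members apart from other expressed coding genes. These matches are letters in a window and not tested sites.

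In wild-type MEFs, more members rose after NCS than fell. With the quasi-likelihood test of edgeR at an adjusted p under 0.05, 27 of 97 members rose (27.8%, against 14.3% of the 15327 genes tested) and 9 fell (9.28%, against 12.4%). The median log2 fold change was 0.10 over the members and 0.0054 over all genes tested, and 65 members were above 0 and 32 below. Among the 11310 autosomal coding genes with the same minimum count but a shorter span, 17.6% rose and 15.5% fell, with a median of 0.0056. Scaling by library totals in place of TMM gave 17 members higher and 12 lower with a median of 0.051. Under that scaling, 14.2% of autosomal coding genes of 200 to 500 kb with the same minimum count were higher and 22.8% lower. A fit of the 6 wild-type samples alone gave 16 and 8. The share over all genes is not given for either fit. Without both wild-type libraries numbered 3, 35 rose and 9 fell, against 17.8% and 14.9% of all genes. All 27 higher and 8 of the 9 lower calls were among them.

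In 3KR MEFs the balance was the other way. Of the 97 members, 28 fell (28.9%, against a background of 15.0%) and 16 rose (16.5%, against 15.8%). The median log2 fold change was -0.045 over the members and -0.00078 over all genes tested, with 56 members below 0 and 41 above. The sign of that median depended on the span required: it was 0.054 over the 43 members of at least 750 kb. Of the shorter autosomal coding genes, 18.4% fell and 19.0% rose. Changes were small in both genotypes: the median size of a called change was 0.24 on the log2 scale in wild-type and 0.31 in 3KR MEFs, and no called member moved by more than 0.75 and 0.74.

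The difference between the responses was tested as an interaction. It was below 0, that is, the log2 fold change was lower in 3KR than in wild-type MEFs, for 69 of the 97 members (71.1%, against 49.0% of all genes), with a median of -0.13 (0.0039 over all genes). It was called lower for 9 members (9.28%, against 1.87%) and higher for 3 (3.09%, against 1.86%). Among autosomal coding genes of 200 to 500 kb with the same minimum count, excluded families included, 7.80% were called lower and 2.14% higher. With the culture number within each genotype as a block, 25 members were lower and 5 higher, against 4.10% and 4.90% of all genes. Same-numbered cultures deviated together in wild-type MEFs but not in 3KR MEFs, which this block paired as well. Without both wild-type libraries numbered 3, there were 32 lower and 5 higher, against 5.82% and 6.01% of all genes. All 12 members of the first count were among those called by each of these fits. Marker genes of cell types were read in the same way. Of the 12 fibroblast markers, 5 rose (41.7%, against 14.3% of all genes) and 1 fell (8.33%, against 12.4%) after NCS in wild-type MEFs. In 3KR MEFs 2 rose (16.7%, against 15.8%) and 6 fell (50%, against 15.0%). In the difference between the responses 5 (41.7%, against 1.87%) were called lower, with a median of -0.065 over the list. That median was -0.18 for the Schwann cell and neural crest markers, with no call, and -0.33 for the macrophage markers, of which 1 of 13 was called lower. It was nearer to 0 for skeletal muscle (-0.024), neuron (-0.069) and endothelial markers (-0.040), where 1 muscle gene was called higher and 1 endothelial gene lower. The part of these cells in the responses of the members was not tested. Single libraries moved the counts too: 27 were lower without untreated wild-type culture 3, 5 without NCS-treated wild-type culture 1, and 1 higher without NCS-treated 3KR culture 1. The shares over all genes in these fits are not given, so a change in the members cannot be told from a change over all genes.

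The members were also summed up by sample. Relative to the mean of untreated wild-type MEFs, the median log2 ratio of the members was -0.028, -0.033 and 0.064 in the untreated wild-type cultures and 0.091, 0.081 and 0.098 after NCS. The NCS-treated cultures all lay above the untreated ones, with untreated culture 3 the nearest to them. In 3KR MEFs it was -0.036, 0.0029 and -0.032 without and -0.0071, -0.042 and -0.015 with NCS, which overlapped. Over all genes tested the median ratio stayed between -0.0059 and 0.0091 in every sample. The members held 0.326% to 0.351% of the counted reads in wild-type and 0.304% to 0.321% in 3KR MEFs.

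**Figure D1:**
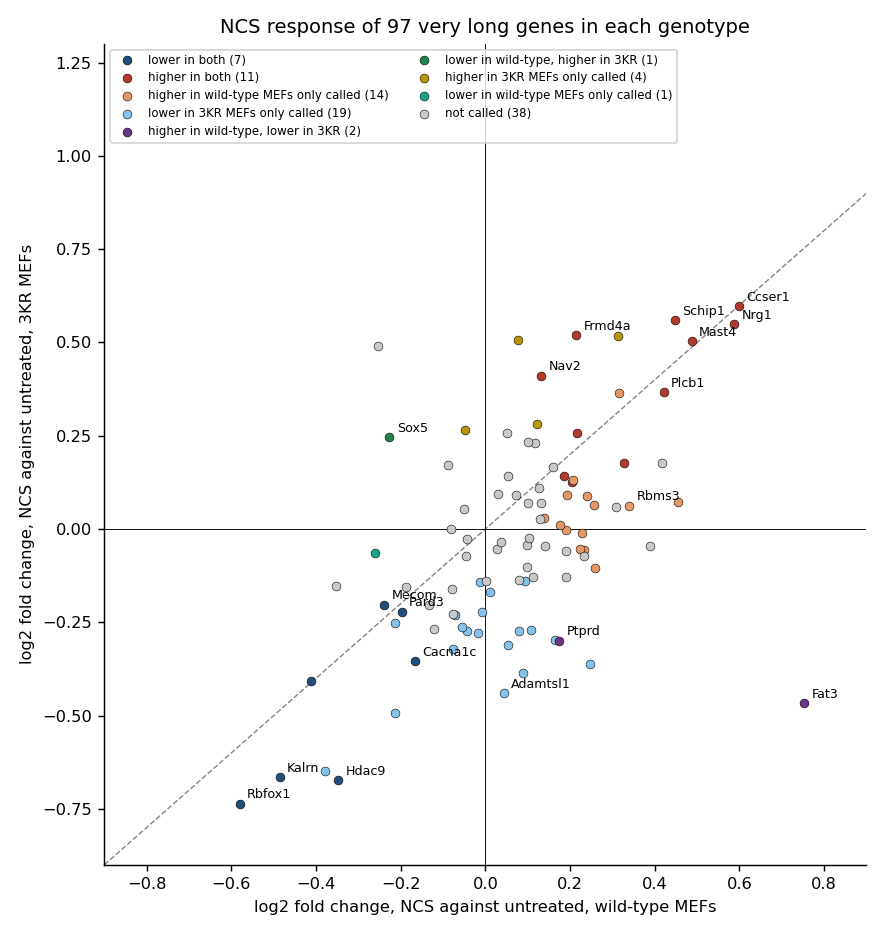
NCS response of the 97 members, with the log2 fold change in wild-type MEFs on the horizontal and in 3KR MEFs on the vertical axis. Each point is 1 gene, coloured by its calls in the 2 genotypes, and 69 of the 97 points lie below the dashed line of equal response.

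The responses were then read along gene span, over all 11413 autosomal coding genes with a mean raw count of at least 50, the excluded families included. In wild-type MEFs the median log2 fold change was 0.018 in the 2562 genes under 10 kb, -0.0071 from 10 to 50 kb, 0.0085 from 50 to 100 kb, 0.020 from 100 to 200 kb, 0.032 from 200 to 500 kb and 0.10 in the 103 genes of 500 kb or more. In 3KR MEFs the medians ran from 0.020 under 10 kb through -0.024 from 100 to 200 kb to -0.040 and -0.043 in the last bins. The difference between the responses thus had a median of 0.013, 0.011, -0.011, -0.035, -0.073 and -0.13 from the shortest to the longest bin. The share called lower in 3KR MEFs was 11.4% under 10 kb, 30.4% from 200 to 500 kb and 29.1% at 500 kb or more, so the lower calls were not particular to the longest genes. The share called higher in wild-type MEFs did not climb evenly, at 15.9% under 10 kb and from 10 to 50 kb, 20.9% from 50 to 100 kb, 24.5% from 100 to 200 kb, 20.5% from 200 to 500 kb and 29.1% at 500 kb or more. Neither library 3 of wild-type MEFs nor the scaling turned the order of the last bins in the difference: its median in the longest bin was -0.17 without both libraries, -0.13 with the size factors of DESeq2 and -0.13 with library totals. With library totals, the wild-type median was below 0 in every bin under 500 kb and 0.053 in the longest.

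**Figure D2:**
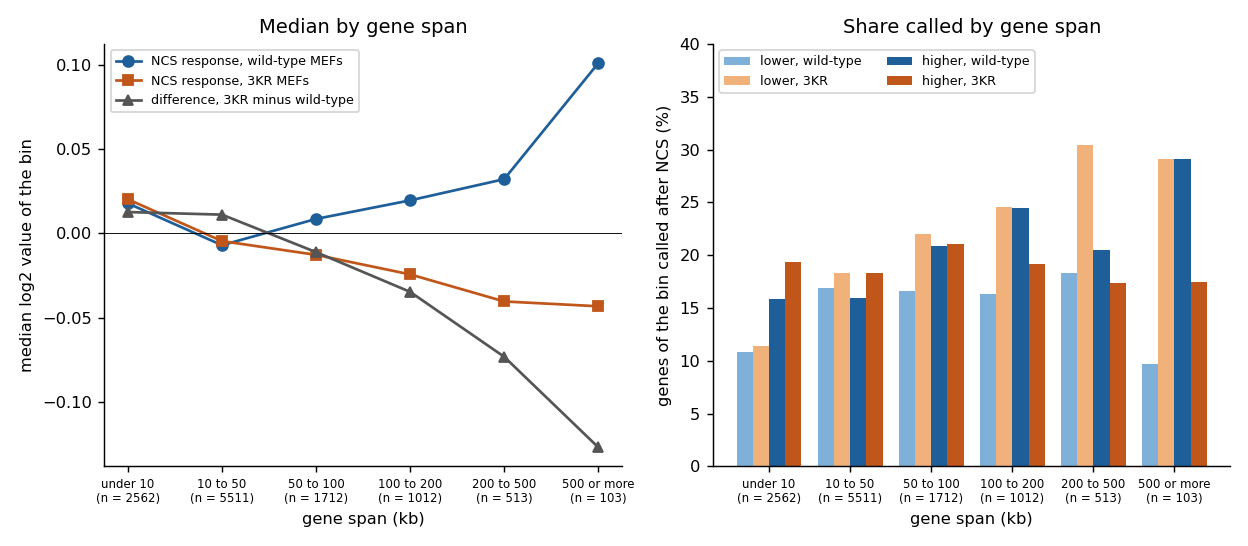
Left, median log2 fold change after NCS in wild-type and 3KR MEFs, and median difference between the responses, for autosomal coding genes in bins of span (kb; n genes under each bin). Right, percent of each bin called lower or higher after NCS, where the longest bin holds 29.1% higher calls in wild-type and 29.1% lower calls in 3KR MEFs.

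Within the members, the annotated gene span did not order the response. Across the 97 genes, which share the same libraries, Pearson's r between the log10 span and the log2 fold change was 0.00093 in wild-type and 0.0081 in 3KR MEFs. Spearman's rho was 0.024 and 0.077. For the span of the longest coding transcript, Pearson's r was 0.11 and 0.094 and Spearman's rho 0.19 and 0.15. Pearson's r was 0.16 and 0.20 for the longest intron, 0.047 and -0.070 for exonic length and 0.026 and 0.077 for the level per exonic kb. The responses in the 2 genotypes, which share no sample, had an r of 0.55 over the members and 0.45 over all genes tested. By call, 7 members were lower in both genotypes (7.22%, against 7.61% of all genes) and 11 higher in both (11.3%, against 9.43%), shares near the background. Called in 3KR MEFs alone were 19 lower and 4 higher, and in wild-type MEFs alone 14 higher and 1 lower. The shares of these classes over all genes are not given, so their counts are not set against a background. Another 2 were higher in wild-type and lower in 3KR MEFs (2.06%, against 0.281% of all genes) and 1 the reverse (1.03%, against 0.0652%). The other 38 were called in neither. Without any 1 library, 15 of the 27 higher and 6 of the 9 lower calls in wild-type MEFs and 11 of the 16 higher and 18 of the 28 lower calls in 3KR MEFs were kept in every fit.

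Members of the cytoskeleton and matrix list numbered 13. In wild-type MEFs 6 rose (46.2%, against 14.3% of all genes) and 1 fell (7.69%, against 12.4%). In 3KR MEFs 4 rose (30.8%, against 15.8%) and 5 fell (38.5%, against 15.0%). Normalized counts of Mast4 were 3823, 3774 and 4503 in untreated and 5557, 5525 and 5923 in NCS-treated wild-type MEFs, and 2669.5, 2701 and 2673 in untreated and 3869, 3918 and 3602 in NCS-treated 3KR MEFs. NCS-treated samples were above untreated ones in both genotypes without overlap, with log2 fold changes of 0.49 ± 0.05 (SE, adjusted p = 8.06e-08) and 0.50 ± 0.052 (SE, adjusted p = 7.18e-08).

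Ank2, or ankyrin-B, which ties membrane proteins to spectrin, had normalized counts of 1565, 1506 and 1738 in untreated and 2007, 2015 and 2019 in NCS-treated wild-type MEFs, and 1879, 1709 and 1735 in untreated and 2059, 1879.6 and 2063 in NCS-treated 3KR MEFs. It rose in both genotypes without overlap, by 0.33 ± 0.052 (SE, adjusted p = 4.45e-05) and 0.18 ± 0.052 (SE, adjusted p = 0.0124), and the 3KR call was lost without untreated cultures 2 or 3 or NCS-treated cultures 1 or 3 (adjusted p up to 0.0705). Frmd4a, a FERM-domain scaffold of cell polarity, had 5058, 4864 and 5506 in untreated and 5902, 5823 and 6225 in NCS-treated wild-type MEFs, and 3893, 3745 and 3799 in untreated and 5601, 5369 and 5393 in NCS-treated 3KR MEFs. It rose without overlap in both genotypes and by more in 3KR MEFs, 0.52 ± 0.04 (SE, adjusted p = 7.51e-10) against 0.21 ± 0.04 (SE, adjusted p = 0.00024). Nav2, a neuron navigator that binds microtubules, rose by 0.41 ± 0.05 (SE, adjusted p = 1.01e-06) in 3KR MEFs, where the groups were apart at 1871, 1877 and 1747 and 2430.4, 2407 and 2453. In wild-type MEFs they overlapped at 3234, 3007 and 3321 and 3376, 3313 and 3824, and the call of 0.13 ± 0.047 (SE, adjusted p = 0.0416) was lost without untreated cultures 1 or 2 or NCS-treated culture 3 (adjusted p up to 0.298) and with library totals (adjusted p = 0.204). Lama2, the laminin alpha chain around muscle and Schwann cells, had 1199.6, 1179.8 and 1363 without and 1488, 1504 and 1488 with NCS in wild-type MEFs and rose without overlap by 0.26 ± 0.052 (SE, adjusted p = 0.000581), and its 3KR samples, also apart, gave 0.065 ± 0.056 (SE, adjusted p = 0.421). Lpp, a focal adhesion protein, and Gpc6, a glypican, fell in 3KR MEFs, with a log2 fold change of -0.14 ± 0.044 (SE, adjusted p = 0.0161) and -0.17 ± 0.036 (SE, adjusted p = 0.00089), with groups apart. The Lpp call was lost without untreated culture 3 or NCS-treated culture 3 (adjusted p up to 0.0588). In wild-type MEFs their values were -0.013 ± 0.044 and 0.01 ± 0.036, with groups that overlapped.

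**Figure D3:**
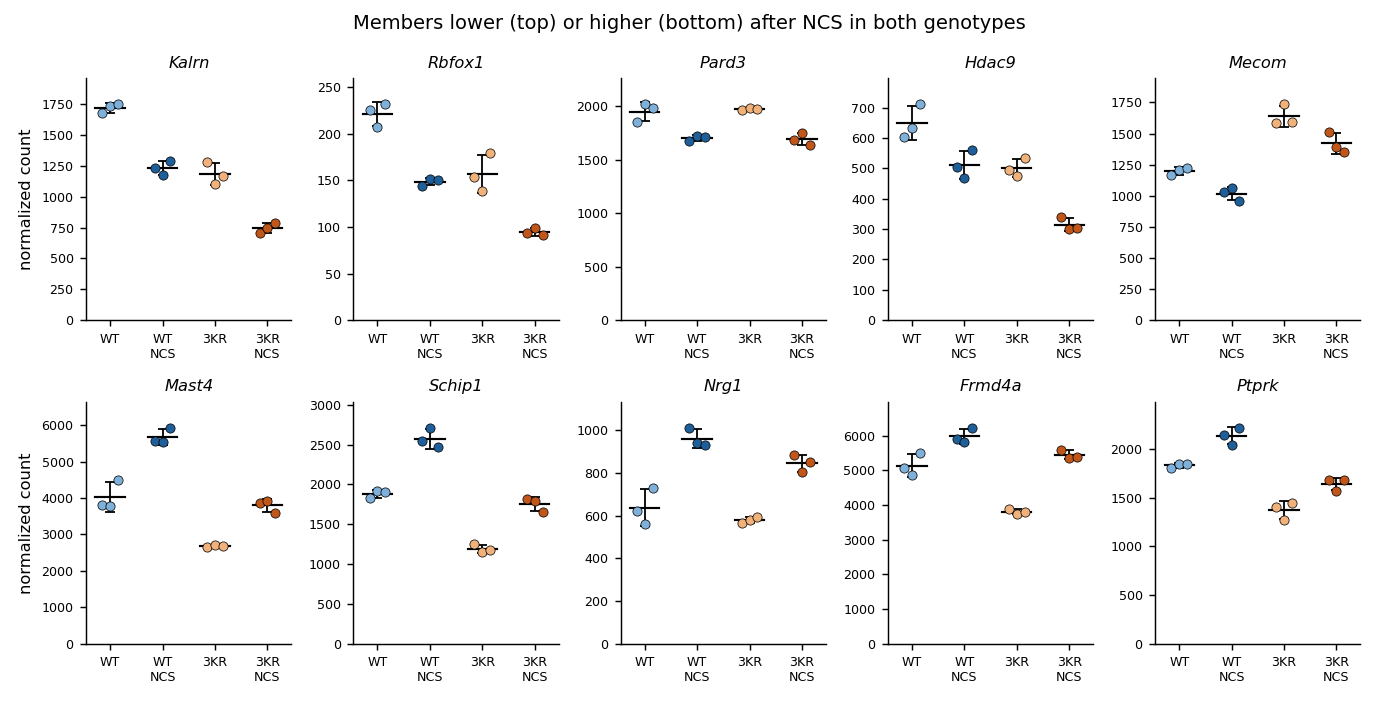
Normalized counts in each sample (points), group mean (bar) and SD (whiskers, n = 3) for 5 members called lower (top) and 5 called higher (bottom) after NCS in both genotypes. WT is wild-type, and in all 10 genes the treated samples lie outside the range of the untreated ones in each genotype.

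Adhesion and junction genes were the largest group, with 24 members. In wild-type MEFs 8 rose (33.3%, against 14.3% of all genes) and 1 fell (4.17%, against 12.4%). In 3KR MEFs 2 rose (8.33%, against 15.8%) and 8 fell (33.3%, against 15.0%). Over these 24 the median log2 fold change was 0.17 in wild-type and -0.10 in 3KR MEFs, and the difference was below 0 for 21 of 24. Pard3, a polarity scaffold of tight junctions, was the 1 that fell in both. Its normalized counts were 1847, 2016 and 1979.8 in untreated and 1672, 1716 and 1715 in NCS-treated wild-type MEFs, and 1964, 1980.2 and 1969 in untreated and 1685, 1745 and 1636 in NCS-treated 3KR MEFs, apart in both genotypes, with -0.20 ± 0.042 (SE, adjusted p = 0.001) and -0.22 ± 0.042 (SE, adjusted p = 0.000293). Ptprk, a receptor tyrosine phosphatase of cell contacts, was 1802, 1844 and 1844 in untreated and 2146, 2039 and 2214 in NCS-treated wild-type MEFs, and 1402, 1269.8 and 1449 in untreated and 1678, 1563 and 1677 in NCS-treated 3KR MEFs. It rose in both without overlap, by 0.22 ± 0.048 (SE, adjusted p = 0.00138) and 0.26 ± 0.05 (SE, adjusted p = 0.000366).

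Its relatives Ptprg and Ptprm rose in wild-type MEFs, by 0.19 ± 0.038 (SE, adjusted p = 0.000447) and 0.14 ± 0.042 (SE, adjusted p = 0.0164), and were at 0.092 ± 0.038 and 0.03 ± 0.043 in 3KR MEFs. The Ptprm call was lost without untreated culture 1 or NCS-treated culture 3 (adjusted p up to 0.0888). Tenm3, a teneurin that binds latrophilins across cell contacts, had 5499, 5423 and 6174 without and 6593, 6410.3 and 6354 with NCS in wild-type MEFs and rose without overlap by 0.18 ± 0.039 (SE, adjusted p = 0.00163), with 3431, 3343 and 3364 without and 3414, 3371 and 3414 with NCS in 3KR MEFs, which overlapped (0.011 ± 0.041). Ctnnd2, or delta-catenin, had 148, 211 and 213 without and 281, 259 and 273 with NCS in 3KR MEFs and rose there by 0.51 ± 0.11 (SE, adjusted p = 0.000722). Its wild-type samples were higher and overlapped, at 524, 515 and 554 without and 569, 540.3 and 575 with NCS in wild-type MEFs.

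Signalling genes numbered 13. In wild-type MEFs 2 rose (15.4%, against 14.3% of all genes) and 1 fell (7.69%, against 12.4%). In 3KR MEFs 4 rose (30.8%, against 15.8%) and 4 fell (30.8%, against 15.0%). Nrg1 codes for the ligand neuregulin of ErbB receptors. Its normalized counts were 619.7, 562 and 731 in untreated and 1009.7, 939 and 930.4 in NCS-treated wild-type MEFs, and 563, 581 and 592 in untreated and 883, 803 and 849.9 in NCS-treated 3KR MEFs. It rose in both genotypes without overlap, by 0.59 ± 0.072 (SE, adjusted p = 1.26e-06) and 0.55 ± 0.074 (SE, adjusted p = 4.02e-06). Plcb1, a phospholipase C downstream of G proteins, had 244, 274 and 270.1 in untreated and 349, 347 and 361 in NCS-treated wild-type MEFs, and 277, 206 and 254 in untreated and 319, 345 and 287 in NCS-treated 3KR MEFs. It also rose in both, by 0.42 ± 0.098 (SE, adjusted p = 0.00229) and 0.37 ± 0.1 (SE, adjusted p = 0.00779), and the 3KR call was lost without untreated culture 2 or NCS-treated culture 2 (adjusted p up to 0.0638).

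Kalrn had normalized counts of 1678, 1741 and 1751 in untreated and 1231, 1177 and 1295 in NCS-treated wild-type MEFs, and 1279.8, 1101 and 1172 in untreated and 708, 747 and 785 in NCS-treated 3KR MEFs. It fell without overlap in both genotypes, with a log2 fold change of -0.49 ± 0.054 (SE, adjusted p = 3.12e-07) and -0.66 ± 0.059 (SE, adjusted p = 6.55e-09). The phosphodiesterases Pde4d and Pde4b, which break down cyclic AMP, rose in 3KR MEFs by 0.26 ± 0.065 (SE, adjusted p = 0.0031) and 0.28 ± 0.049 (SE, adjusted p = 0.000118), and their wild-type values were -0.049 ± 0.071 and 0.12 ± 0.061. Fgfr2 fell in 3KR MEFs, where its normalized counts were 1875, 1901 and 1919 without and 1727, 1602 and 1548 with NCS (-0.22 ± 0.048 SE, adjusted p = 0.00107). It overlapped in wild-type MEFs, at 1702, 1794 and 1917 and 1754, 1801 and 1837 (-0.0074 ± 0.048).

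Transcription and chromatin genes numbered 13. In wild-type MEFs 3 were higher (23.1%, against 14.3% of all genes) and 3 lower (23.1%, against 12.4%). In 3KR MEFs 1 was higher (7.69%, against 15.8%) and 3 lower (23.1%, against 15.0%). Hdac9, a class IIa histone deacetylase, was 603, 634 and 711 in untreated and 505, 469 and 559 in NCS-treated wild-type MEFs, and 494, 475 and 535 in untreated and 338, 299.9 and 303 in NCS-treated 3KR MEFs. It fell without overlap in both, with a log2 fold change of -0.35 ± 0.077 (SE, adjusted p = 0.0015) and -0.67 ± 0.086 (SE, adjusted p = 1.63e-06). Mecom, which codes for the zinc finger factor EVI1, was 1163, 1210.3 and 1224 in untreated and 1033, 1064 and 955 in NCS-treated wild-type MEFs, and 1586, 1735 and 1592 in untreated and 1516, 1392 and 1352 in NCS-treated 3KR MEFs. It fell, with a log2 fold change of -0.24 ± 0.056 (SE, adjusted p = 0.00246) and -0.20 ± 0.054 (SE, adjusted p = 0.00568), the groups being apart in each genotype, and missed the threshold in 3KR MEFs without untreated culture 2 (adjusted p = 0.0506). Zbtb20, a zinc finger repressor, and Foxp2, a forkhead repressor, rose in wild-type MEFs, by 0.45 ± 0.082 (SE, adjusted p = 0.000185) and 0.26 ± 0.074 (SE, adjusted p = 0.0113). In 3KR MEFs their values were 0.073 ± 0.083 and -0.11 ± 0.09. Auts2, a partner of Polycomb complexes, had 1401, 1434 and 1336 without and 1103, 1065 and 1162 with NCS in 3KR MEFs and fell there without overlap, with a log2 fold change of -0.32 ± 0.05 (SE, adjusted p = 2.88e-05), with -0.076 ± 0.054 in wild-type MEFs.

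The 3 RNA-binding members went different ways. Rbfox1 had normalized counts of 226, 207 and 232 in untreated and 145, 151 and 150.3 in NCS-treated wild-type MEFs, and 153, 138 and 179 in untreated and 93.2, 99.2 and 91.0 in NCS-treated 3KR MEFs. It fell without overlap in both genotypes, with a log2 fold change of -0.58 ± 0.11 (SE, adjusted p = 0.000346) and -0.74 ± 0.13 (SE, adjusted p = 8.12e-05), the lowest fold change among the called members in each. Celf2, a regulator of splicing, rose in both, from 2978, 2879 and 3165 to 3336, 3493 and 3588 normalized counts in wild-type and from 2154, 2046 and 2147 to 2321, 2299.7 and 2293 in 3KR MEFs. Its log2 fold changes were 0.20 ± 0.039 (SE, adjusted p = 0.000376) and 0.13 ± 0.041 (SE, adjusted p = 0.0244), and the second was lost without untreated culture 2 or NCS-treated cultures 1, 2 or 3 (adjusted p up to 0.122) and with library totals (adjusted p = 0.145).

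Of 16 genes for trafficking, ubiquitin or metabolic enzymes, 3 rose (18.75%, against 14.3% of all genes) and 1 fell (6.25%, against 12.4%) in wild-type MEFs. In 3KR MEFs 1 rose (6.25%, against 15.8%) and 3 fell (18.75%, against 15.0%). Exoc4, a subunit of the exocyst that tethers secretory vesicles, had 4932, 4900.0 and 5131 in untreated and 5612, 5649 and 5794 in NCS-treated wild-type MEFs, and 3599, 3826 and 3819.8 in untreated and 4003, 4215 and 4177 in NCS-treated 3KR MEFs. It rose without overlap in both, by 0.18 ± 0.034 (SE, adjusted p = 0.000223) and 0.14 ± 0.035 (SE, adjusted p = 0.00313). Among the 3 channel genes, Cacna1c, the pore of the L-type calcium channel Cav1.2, fell in both. In 3KR MEFs its samples were apart, at 2457, 2550.1 and 2439.5 and 1888, 1969 and 1958 (-0.35 ± 0.05 SE, adjusted p = 6.99e-06). In wild-type MEFs they overlapped, at 2629, 2553 and 2929 and 2341, 2313 and 2593, and the call of -0.17 ± 0.049 (SE, adjusted p = 0.013) was lost without untreated culture 3 or NCS-treated cultures 1 or 2 (adjusted p up to 0.0797).

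Of the 12 members outside these lists, 3 rose in wild-type MEFs (25%, against 14.3% of all genes). In 3KR MEFs 3 rose (25%, against 15.8%) and 3 fell (25%, against 15.0%). Schip1 had normalized counts of 1825, 1921 and 1899 in untreated and 2541, 2707 and 2468 in NCS-treated wild-type MEFs, and 1246, 1149 and 1177 in untreated and 1814, 1789 and 1655 in NCS-treated 3KR MEFs. It rose without overlap in both, by 0.45 ± 0.046 (SE, adjusted p = 1.02e-07) and 0.56 ± 0.05 (SE, adjusted p = 6.66e-09). Ccser1, which codes for a coiled-coil and serine-rich protein, had few reads, at 61.3, 65.9 and 45.5 in untreated and 105, 93.1 and 65.7 in NCS-treated wild-type MEFs, and 67.5, 54.1 and 67.3 in untreated and 112, 85.2 and 87.9 in NCS-treated 3KR MEFs. Its fold changes were the highest among the members called in both, 0.60 ± 0.2 (SE, adjusted p = 0.0253) and 0.60 ± 0.19 (SE, adjusted p = 0.0217), but the wild-type groups overlapped. The wild-type call was lost without untreated culture 3 or NCS-treated cultures 1 or 2 (adjusted p up to 0.141) and the 3KR call without untreated culture 2 or NCS-treated culture 1 (adjusted p up to 0.137). Ntrk3, the receptor of neurotrophin 3, had 235, 213 and 183 without and 125, 146 and 176 with NCS in 3KR MEFs and fell there, with a log2 fold change of -0.49 ± 0.12 (SE, adjusted p = 0.00276), with -0.21 ± 0.1 in wild-type MEFs, which missed the threshold with groups apart.

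The 12 members whose responses differed between the genotypes were described next. Ptprd moved in opposite directions. Its normalized counts were 1293, 1309 and 1415 in untreated and 1417, 1535 and 1589 in NCS-treated wild-type MEFs, and 1636, 1556 and 1617 in untreated and 1309, 1339 and 1256 in NCS-treated 3KR MEFs, apart in both genotypes. It rose by 0.17 ± 0.05 (SE, adjusted p = 0.0112) in wild-type and fell in 3KR MEFs, -0.30 ± 0.05 (SE, adjusted p = 6.85e-05), a difference of -0.47 ± 0.071 (SE, adjusted p = 0.000243). The wild-type call was lost without untreated cultures 1 or 2 or NCS-treated culture 3 (adjusted p up to 0.0644), and the difference was called in all 12 fits that left out 1 library. Adamtsl1, a secreted matrix protein of the ADAMTS-like family, was 1531, 1519.7 and 1631 in untreated and 1643, 1712 and 1479.7 in NCS-treated wild-type MEFs, and 1174, 1127 and 1116 in untreated and 859, 837 and 819 in NCS-treated 3KR MEFs. It overlapped in wild-type MEFs and fell without overlap in 3KR MEFs, with a log2 fold change of -0.44 ± 0.057 (SE, adjusted p = 2.31e-06), and the difference was -0.48 ± 0.077 (SE, adjusted p = 0.000447). Without both wild-type libraries numbered 3, its rise in wild-type MEFs was called, at 0.13 (edgeR, adjusted p = 0.0333).

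Rbms3, an RNA-binding protein of the c-Myc single-strand binding family, had 2033, 2053 and 2265 without and 2752, 2541 and 2766 with NCS in wild-type MEFs and 3314, 3299.9 and 3234 without and 3434, 3503 and 3337 with NCS in 3KR MEFs. It rose in wild-type MEFs by 0.34 ± 0.044 (SE, adjusted p = 2.38e-06), with 0.063 ± 0.042 (SE, adjusted p = 0.283) in 3KR MEFs, and the samples were apart in both. The difference was -0.28 ± 0.061 (SE, adjusted p = 0.00923). Tenm4, a teneurin, was 268, 279 and 324 in untreated and 309, 307 and 359 in NCS-treated wild-type MEFs, and 1058, 1047 and 1116 in untreated and 879, 898 and 845 in NCS-treated 3KR MEFs. It overlapped in wild-type MEFs (0.16 ± 0.083) and fell in 3KR MEFs, with a log2 fold change of -0.30 ± 0.064 (SE, adjusted p = 0.000959), a difference of -0.46 ± 0.1 (SE, adjusted p = 0.0129). Frmd4a, described above, differed the other way, by 0.30 ± 0.057 (SE, adjusted p = 0.00218). These 5 differences were called in each of the 12 fits that left out 1 library.

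The other 7 differences were each lost in at least 1 such fit. Fat3, an atypical cadherin with few reads, was 25.7, 31.4 and 31.0 in untreated and 65.6, 36.9 and 46.8 in NCS-treated wild-type MEFs, and 123, 119 and 107 in untreated and 84.1, 82.8 and 84.8 in NCS-treated 3KR MEFs. Samples were apart in both genotypes, higher after NCS in wild-type (0.75 ± 0.22 SE, adjusted p = 0.0131) and lower in 3KR MEFs (-0.47 ± 0.17 SE, adjusted p = 0.0395), with a difference of -1.22 ± 0.28 (SE, adjusted p = 0.0131). The difference was lost without NCS-treated wild-type culture 1 (adjusted p up to 0.0629), the wild-type call without untreated culture 1 or NCS-treated culture 1 (adjusted p up to 0.12), and the 3KR call without any 1 of its 6 libraries (adjusted p up to 0.12). Sox5, a transcription factor of cartilage and neural crest, was 537, 481 and 496 in untreated and 408, 433 and 458 in NCS-treated wild-type MEFs, and 290.2, 272 and 288 in untreated and 352, 342 and 314 in NCS-treated 3KR MEFs. It fell in wild-type (-0.23 ± 0.073 SE, adjusted p = 0.0227) and rose in 3KR MEFs (0.25 ± 0.081 SE, adjusted p = 0.0243) without overlap, a difference of 0.47 ± 0.11 (SE, adjusted p = 0.0142), which was lost without NCS-treated 3KR culture 1 (adjusted p up to 0.0551). The wild-type call was lost without untreated culture 1 or NCS-treated cultures 1 or 2 (adjusted p up to 0.133) and the 3KR call without untreated culture 2 or NCS-treated cultures 1 or 2 (adjusted p up to 0.106).

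Cdk14, a kinase of Wnt signalling, Pcdh9, a protocadherin, and Nbea, or neurobeachin, a scaffold of membrane traffic, fell in 3KR MEFs without overlap and overlapped in wild-type MEFs. Their 3KR samples were 3163, 3248 and 3178 without and 2615, 2647 and 2659 with NCS for Cdk14, 494, 429.5 and 432 without and 369, 329 and 336 with NCS for Pcdh9 and 2174, 1951 and 2068 without and 1695, 1703 and 1701 with NCS for Nbea. The differences were -0.23 ± 0.053 (SE, adjusted p = 0.0141), -0.48 ± 0.11 (SE, adjusted p = 0.0194) and -0.26 ± 0.065 (SE, adjusted p = 0.0245). That of Cdk14 was lost without NCS-treated wild-type culture 1 (adjusted p up to 0.0551), that of Pcdh9 without untreated wild-type culture 1 or NCS-treated wild-type culture 1 or untreated 3KR culture 1 or NCS-treated 3KR cultures 2 or 3 (adjusted p up to 0.0717), and that of Nbea without untreated wild-type culture 1 or NCS-treated wild-type cultures 1 or 2 or untreated 3KR cultures 1 or 3 or NCS-treated 3KR cultures 1, 2 or 3 (adjusted p up to 0.0992). Astn2, an astrotactin, was 235, 236 and 264 without and 294, 309 and 271 with NCS in wild-type MEFs and 192, 166 and 187 without and 149, 154 and 123 with NCS in 3KR MEFs, apart in both. It fell in 3KR MEFs, with a log2 fold change of -0.36 ± 0.12 (SE, adjusted p = 0.0197), a call lost without untreated cultures 1 or 3 or NCS-treated culture 3 (adjusted p up to 0.125). The wild-type value was 0.25 ± 0.1 (SE, adjusted p = 0.0701). Without both wild-type libraries numbered 3 it was called, at 0.35 (edgeR, adjusted p = 0.0193). The difference of -0.61 ± 0.15 (SE, adjusted p = 0.0237) was lost without untreated wild-type cultures 1 or 2 or NCS-treated wild-type cultures 1 or 2 or untreated 3KR cultures 1 or 3 or NCS-treated 3KR culture 3 (adjusted p up to 0.0932). That of Nav2, 0.28 ± 0.069 (SE, adjusted p = 0.0226), was lost without untreated wild-type culture 1 or NCS-treated wild-type cultures 1 or 2 or untreated 3KR culture 3 or NCS-treated 3KR cultures 1 or 3 (adjusted p up to 0.0889).

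**Figure D4:**
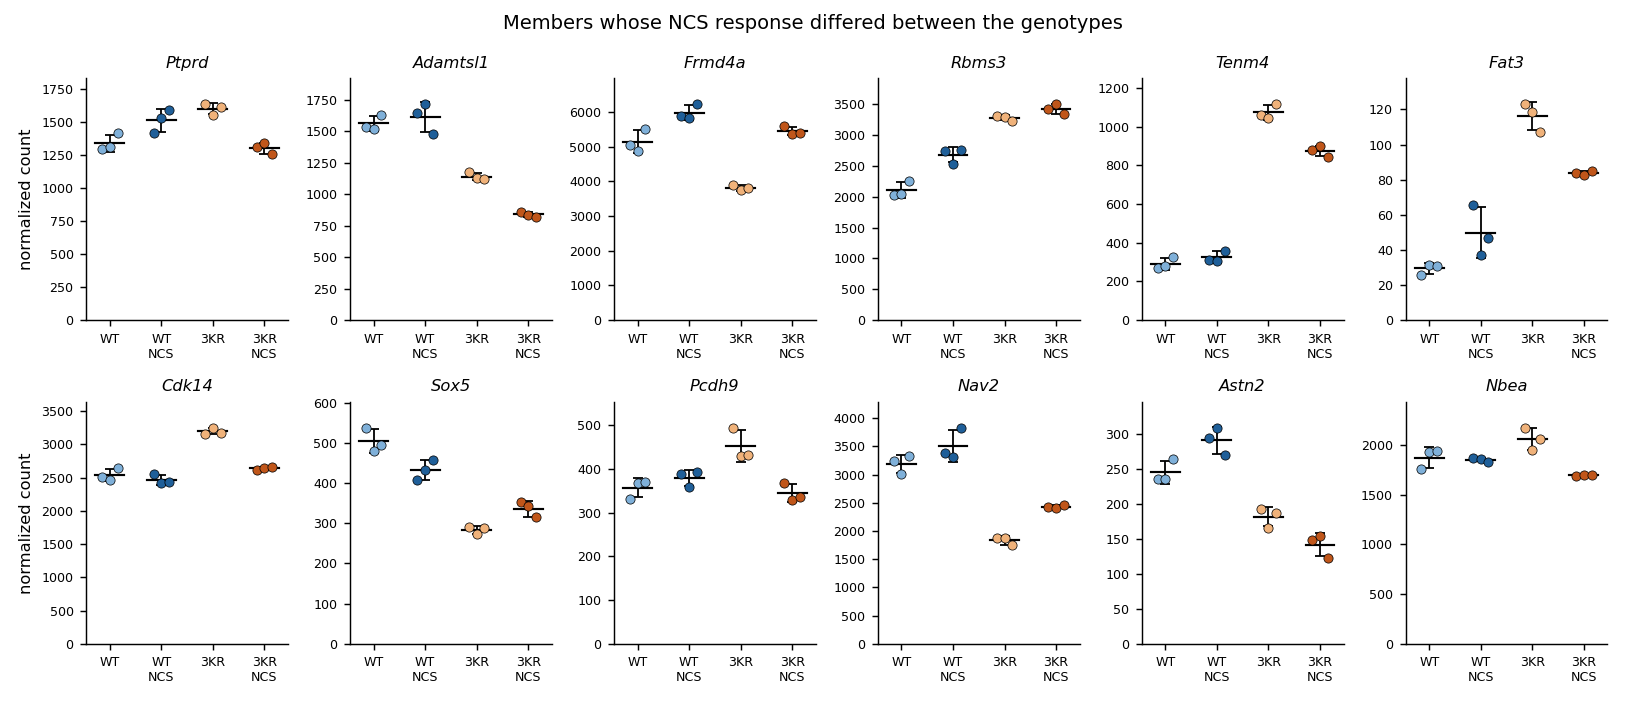
Normalized counts in each sample (points), group mean (bar) and SD (whiskers, n = 3) for the 12 members whose NCS response differed between the genotypes, in order of p from top left. WT is wild-type. In Ptprd, Fat3 and Astn2 the treated samples lie above the untreated ones in wild-type and below them in 3KR MEFs, and in Sox5 the reverse. The wild-type change of Astn2 was not called.

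An annotated span does not say where transcription begins. RefSeq starts were therefore set against the gene ends for the 77 members with an entry. Of these, 29 had more than 1 start (37.7%, against 15.4% of the 27025 genes in the table, which were not filtered by type or level). For 30 a start left less than 500 kb to the gene end. Ank2 had a start that left 21.8 kb, Schip1 one of 54.1 kb, Frmd4a one of 54.3 kb and Mecom one of 61.9 kb. The counts, made per gene, do not show which start was used.

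Of the 47 members for which every start left at least 500 kb, 11 rose and 2 fell in wild-type and 8 rose and 11 fell in 3KR MEFs, with medians of 0.10 and -0.035. Of the 30 with a start that left less, 12 rose and 6 fell, and 7 rose and 8 fell, with medians of 0.038 and 0.041. The difference between the responses had a median of -0.15 in the first set, where 7 were called, each lower, and of -0.035 in the second, where 3 were called, each higher (Frmd4a, Sox5 and Nav2). Over all genes tested, 14.3% rose and 12.4% fell in wild-type and 15.8% rose and 15.0% fell in 3KR MEFs. The difference was called lower for 1.87% and higher for 1.86% of them. The division of the members by their starts was made after the calls were known and carries no test.

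**Figure D5:**
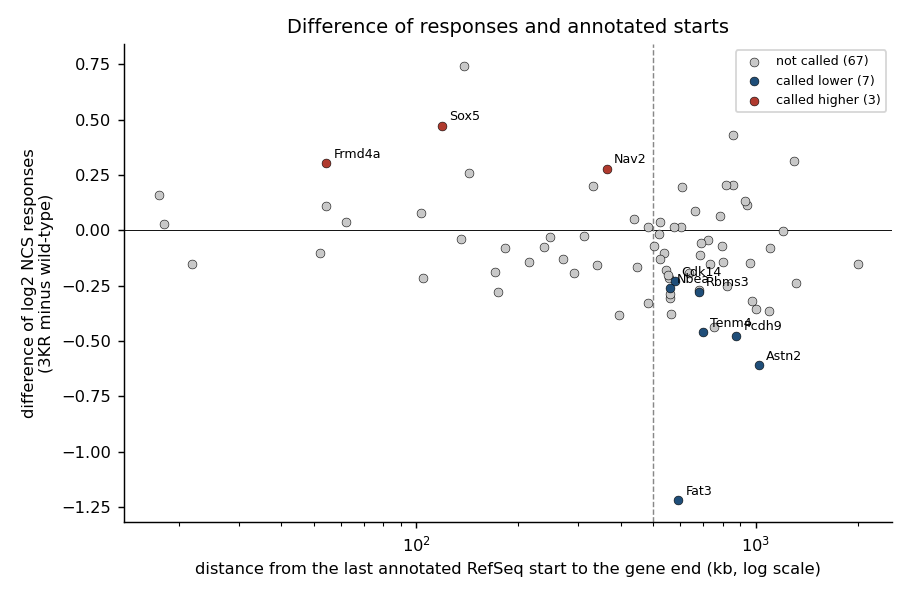
Difference of the log2 NCS responses (3KR minus wild-type, vertical axis) against the distance in kb from the last annotated RefSeq start to the gene end (log axis) for the 77 members with an entry. Each point is 1 gene. The 7 called lower lie right of the dashed line at 500 kb and the 3 called higher left of it.

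Levels differed between genotypes before any treatment. Of the 97 members, 37 were lower in untreated 3KR than in wild-type MEFs (38.1%, against 23.6% of all genes) and 35 higher (36.1%, against 22.1%), with a median of -0.022. After NCS 45 were lower (46.4%, against 23.6%) and 30 higher (30.9%, against 22.9%), with a median of -0.13. Without both wild-type libraries numbered 3, 36 were lower and 39 higher untreated, against 24.3% and 24.5% of all genes. After NCS these counts were 46 and 31, against 24.5% and 25.2%. The markers of Schwann cells, macrophages and fibroblasts given above moved with genotype in the same samples. Without treatment 8 of 12 Schwann cell markers were lower, and 12 of 13 macrophage and 10 of 12 fibroblast markers higher. The part of these cells in the counts was not tested. Less RNA per cell and fewer cells of a type cannot be told apart in bulk samples. A member could also reach the minimum count through the genotype in which it was high.

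By the lowest p, the genes lower in untreated 3KR MEFs were led by Edil3, a secreted integrin-binding protein. Its normalized counts were 4095, 4109 and 4217 in wild-type and 2521, 2606 and 2594 in 3KR MEFs (-0.69 ± 0.034 SE, adjusted p = 3.85e-14). Csmd1 was at 295, 313 and 333 in wild-type and 85.7, 80.1 and 95.5 in 3KR MEFs, Tenm3 at 5499, 5423 and 6174 in wild-type and 3431, 3343 and 3364 in 3KR MEFs and Ctnnd2 at 524, 515 and 554 in wild-type and 148, 211 and 213 in 3KR MEFs. None of these overlapped, and their log2 differences were -1.85, -0.76 and -1.48, with -0.81 for Nav2. Among those higher in 3KR MEFs, Tenm4 was at 268, 279 and 324 in wild-type and 1058, 1047 and 1116 in 3KR MEFs (1.89 ± 0.072 SE, adjusted p = 3e-16) and Pde4b at 510.3, 523 and 458 in wild-type and 1320.2, 1337 and 1406 in 3KR MEFs (1.44 ± 0.055 SE, adjusted p = 3.26e-16). Enox1, a cell surface oxidase, was at 123, 109.6 and 90.0 in wild-type and 358, 371 and 331 in 3KR MEFs. Enox1, Auts2 and Rbms3 did not overlap between genotypes, with log2 differences of 1.70, 0.75 and 0.63.

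Per exonic kb, Lpp was the most abundant member, at a mean of 709 normalized counts per kb over all samples, followed by Gpc6 (517), Tenm3 (462) and, further down, Foxp1, a forkhead repressor (435). The median member was at 43.4 and the lowest, the ryanodine receptor gene Ryr3, at 3.12. Foxp1 overlapped after NCS in both genotypes, with -0.081 ± 0.035 and -4.9e-05 ± 0.036.

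Of 16 listed common fragile site genes found in the files, 13 were tested and 6 were members. Among the 13, 2 rose (15.4%, against 14.3% of all genes) and 1 fell (7.69%, against 12.4%) in wild-type MEFs. In 3KR MEFs 1 rose (7.69%, against 15.8%) and 2 fell (15.4%, against 15.0%). The medians were -0.048 and 0.090. Of the members, Nbea fell in 3KR MEFs, as given above, and the nuclear receptor gene Rora rose in wild-type MEFs (0.24 ± 0.076 SE, adjusted p = 0.0206), a call lost without untreated cultures 1 or 2 or NCS-treated cultures 1 or 2 (adjusted p up to 0.168). Macrod2 was at 205, 193 and 180.1 in untreated and 222, 194 and 135 in NCS-treated wild-type MEFs, and 123, 161 and 153 in untreated and 122, 127 and 124 in NCS-treated 3KR MEFs. It overlapped in both genotypes, as did the mitochondrial peptidase gene Immp2l and the oxidoreductase gene Wwox. Their values in wild-type and 3KR MEFs were -0.076 ± 0.14 and -0.23 ± 0.16 for Macrod2, 0.10 ± 0.21 and 0.23 ± 0.2 for Immp2l and -0.05 ± 0.087 and 0.054 ± 0.087 for Wwox. Esrrg, an estrogen-related receptor gene that is no member, was called higher in both genotypes, with log2 fold changes of 1.75 and 1.54 but at most 15.4 normalized counts in any sample.

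The machinery that moves RNA polymerase II through genes was read from a list of 40 genes, of which 39 were tested. In wild-type MEFs 9 rose (23.1%, against 14.3% of all genes) and 1 fell (2.56%, against 12.4%). In 3KR MEFs 7 rose (17.9%, against 15.8%) and 4 fell (10.3%, against 15.0%), and the medians were 0.028 and 0.044. Ell2, a subunit of the super elongation complex, was at 2631 to 2694 normalized counts without and 3770 to 3855 with NCS in wild-type MEFs, and at 1792 to 1880 and 2518 to 2658 in 3KR MEFs. It rose by 0.51 ± 0.035 and 0.48 ± 0.037 (SE). Ccnt1, or cyclin T1 of the elongation kinase, rose by 0.30 ± 0.041 and 0.26 ± 0.041. Top2a, the topoisomerase of dividing cells, fell, from 6533 to 6760 to 5162 to 5325 in wild-type (-0.34 ± 0.031) and from 7728 to 7937 to 6842 to 7004 in 3KR MEFs (-0.17 ± 0.031). The adjusted p of edgeR was at most 0.000142 for each of these.

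At the edges of the rule, the members just inside 500 kb were Edil3 (502 kb), Dock1 (503 kb) and Cpq (511 kb), with log2 fold changes of -0.073, 0.036 and 0.14 in wild-type and -0.23, -0.035 and -0.045 in 3KR MEFs. Just outside were Pde1c (499 kb), Dnm3 (496 kb) and Gabrb1 (491 kb), with 0.017, 0.22 and 0.45, and 0.22, 0.097 and 0.31. By count, Lingo2 (a mean of 50.1), Fgf14 (52.6) and Inpp4b (56.4) were just inside, with -0.25, 0.0024 and 0.029, and 0.49, -0.14 and 0.095. Dab1 (48.7), Nckap5 (47.4) and Ntm (46.8) were just outside, with -0.51, 0.33 and -0.089, and 0.46, 0.15 and 0.13. The lowest count of a member in any sample was 18, and none was at or under 3 reads.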

How the data were processed

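RNA was sequenced from 12 samples, 3 for each genotype and treatment, and the authors deposited raw counts of reads per Ensembl gene identifier, 1 file per sample, neither normalized nor filtered. The submitters' processing notes name TopHat, HTSeq and DESeq and the build mm9, without versions. Whether reads were counted by strand is not given in the sources used here, so genes that overlap on opposite strands, common inside very long introns, can hold each other's reads. Files carry no coordinates. Spans and symbols come from GENCODE M21 (GRCm38), which holds 32919 of 37991 identifiers and lacks 5072, and promoters from RefSeq (GRCm38.p6).

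Genes were filtered with filterByExpr, scaled by TMM and tested with the quasi-likelihood test of edgeR 4.0.16 (1 coefficient per group, all 12 samples, two-sided, Benjamini-Hochberg over 15327 genes, threshold 0.05). Levels were scaled with the size factors from DESeq2 1.42.0, and 0.5 was added for the ratios by sample. Errors are SE of log2 fold changes, and counting error limits levels at or under 3 reads (0.0663 to 0.0904 CPM). Both fits were tested on simulated counts.

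Same-numbered untreated and NCS-treated wild-type samples deviated together (correlation of deviations 0.27, 0.23 and 0.47), and 3KR samples did not (0.0010, 0.050 and 0.0024), judged from the same-numbered pairs alone. For the NCS responses and their difference, the block fit used the culture number within each genotype, 3KR MEFs included. For the comparisons between genotypes it used the same number across both genotypes. The pairing of 3KR samples and of the 2 genotypes in these fits thus has no basis in the labels. Wild-type samples numbered 1 and 2 correlated as much with each other (0.22 and 0.24), so the numbers set culture 3 apart and do not tell 1 from 2. Alternatives were other scalings, the Wald test of DESeq2, other filters, the culture as a block, only the samples compared, each sample left out, and other thresholds or span measures for the members. Leaving out both wild-type libraries numbered 3 and using RefSeq spans were chosen after seeing the data. Members, role lists, other lists and the rule for named genes were chosen with earlier results of these data known. The rule named members called the same way in both genotypes, the longest, the most abundant, those with the lowest p for the difference of responses and between untreated genotypes, those nearest the thresholds, fragile site genes, and 3 elongation genes. All other genes with values were named after their values were seen. Counts over lists include a member that is not reported here by name. Counts per gene do not show the E2f1 substitution itself. Markers of skeletal muscle, neurons and endothelium were read as well: of 7 tested genes in each list, 2 muscle, 4 neuron and 2 endothelial genes were lower and 1 neuron and 1 endothelial gene higher in untreated 3KR than in wild-type MEFs, and 1, 3 and 1 were called after NCS in 3KR MEFs. The endothelial list summed to 592 to 606 normalized counts in untreated wild-type and 1134 to 1238 in untreated 3KR MEFs, and to 759 to 799 after NCS in 3KR MEFs.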

Additional observations from a re-analysis of the deposited data

Results flagged for a closer look

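The response to NCS differed between wild-type and 3KR MEFs, by the interaction test of edgeR at an adjusted p under 0.05, for 12 very long genes. The difference in log2 fold change, 3KR minus wild-type, was -0.47 for Ptprd, -0.48 for Adamtsl1, -0.28 for Rbms3, -0.46 for Tenm4, -1.22 for Fat3, -0.23 for Cdk14, -0.48 for Pcdh9, -0.61 for Astn2 and -0.26 for Nbea. It was 0.30 for Frmd4a, 0.47 for Sox5 and 0.28 for Nav2. Cells of the 2 genotypes also differed in sex and in fibroblast, Schwann cell and macrophage markers, and the part of these in the differences was not tested.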

How the results depend on the processing

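No called value of a member changed sign under any alternative. Of 7275 values of members recomputed under alternatives, 6864 stayed on their side of the threshold, 247 lost a call and 164 gained one. With library totals, 17 members were higher in wild-type MEFs and the medians were 0.051 in wild-type and -0.091 in 3KR MEFs. With only the samples compared, 16 were higher in wild-type MEFs. At a span of at least 300 kb, the wild-type median was 0.054 and 16.2% were lower. With the span of the longest transcript, 5.68% were lower in wild-type MEFs. At 750 kb or more, the 3KR median was 0.054, above 0, and 23.3% were higher in untreated 3KR than in wild-type MEFs. The difference of responses had 14 members lower and 5 higher without a filter on low counts, 25 and 5 with the replicate block, and 32 and 5 with a median of -0.17 without both wild-type libraries numbered 3, which was chosen after seeing the data. Without 1 library at a time, the wild-type counts ranged from 7 to 9 lower and 18 to 33 higher, the 3KR counts from 20 to 24 lower and 13 to 17 higher, and the difference from 5 to 27 lower and 1 to 4 higher, with medians from -0.16 to -0.091. For library totals, only the samples compared, no filter and single libraries left out, the shares called over all genes are not given. The replicate block changed no count of members by over 1.5 times in the other comparisons. Depth limits the members with few reads, and the SE of a wild-type response reached 0.3 on the log2 scale.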
